A study of Homo sapiens with 13 samples.

Results

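Romidepsin and chaetocin were compared directly in HuT78 cells, by setting the 4 libraries of romidepsin-treated cells against the 4 libraries of chaetocin-treated cells from the same RNA sequencing count table. The comparison was chosen with earlier results of these data known. Within it the libraries were taken by their labels: 8 of the 13 libraries in the table, and all 45744 of its genes, of which 14717 had enough reads to be tested. HuT78 is an established T cell line derived from a person with Sézary syndrome, a leukemic form of cutaneous T cell lymphoma. Romidepsin was given at 1 µM and chaetocin at 10 nM, and in both groups the replicates were numbered 1 to 4 and RNA was taken after 72 h. The doses differ, so each difference below is between these treatments as given and not between the compounds at a matched dose. The remaining libraries were 3 of cells given F5446 and 2 of cells given the vehicle DMSO (numbers 1 and 4), also at 72 h. DMSO values are set beside the treated groups as levels, without a test. All groups were the same cell line and nothing else was said to differ between them. The labels do not say that replicates were separate cultures, so p-values measure the spread between these libraries, which may be technical.

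Romidepsin is a bicyclic depsipeptide that inhibits class I histone deacetylases and is used to treat cutaneous T cell lymphoma. Chaetocin is a fungal epipolythiodioxopiperazine, known as an inhibitor of the histone H3 lysine 9 methyltransferase SUV39H1 and also reported to act on thioredoxin reductase. Histone deacetylases and H3 lysine 9 methylation both act in gene silencing. Interferon-stimulated genes, which run through the results below, are switched on when interferon receptors signal through Janus kinases to transcription factors that bind short promoter elements. They include antiviral enzymes, the guanylate-binding GTPases and much of the machinery that loads peptides onto class I major histocompatibility complex (MHC) molecules for display to cytotoxic T cells.

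Promoter sequences are shown for 3 of the interferon-stimulated and antigen-presentation genes that differed between the drugs, to show which hold the interferon-stimulated response element (ISRE). They are the 250 bases before the RefSeq transcript start in GRCh38.p14, all on the minus strand and printed 5′ to 3′ along the gene, with ISRE matches in capitals.
GBP1 (chr1:89065209-89065458): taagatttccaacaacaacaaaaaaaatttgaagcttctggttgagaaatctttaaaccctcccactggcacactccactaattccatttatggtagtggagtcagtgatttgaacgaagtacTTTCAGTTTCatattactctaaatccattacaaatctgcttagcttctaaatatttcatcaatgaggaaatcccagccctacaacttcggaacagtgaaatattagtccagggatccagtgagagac
TAP1 (chr6:32853705-32853954): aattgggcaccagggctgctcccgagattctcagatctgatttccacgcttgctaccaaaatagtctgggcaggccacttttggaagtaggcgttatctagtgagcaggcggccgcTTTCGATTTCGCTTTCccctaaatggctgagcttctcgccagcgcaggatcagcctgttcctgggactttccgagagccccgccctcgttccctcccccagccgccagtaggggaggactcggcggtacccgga
HLA-B (chr6:31357180-31357429): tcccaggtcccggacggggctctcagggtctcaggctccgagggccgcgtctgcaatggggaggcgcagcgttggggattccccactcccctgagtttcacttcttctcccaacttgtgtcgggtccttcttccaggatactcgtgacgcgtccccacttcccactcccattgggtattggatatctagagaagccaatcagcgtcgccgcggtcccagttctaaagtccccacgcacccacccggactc
The letters searched were GAAA, any 2 bases and GAAA again for the ISRE, and TTCNNNGAA for the gamma-activated site (GAS), on both strands. The GBP1 window held 1 ISRE match, beginning 127 bases before the start. The TAP1 window held 2 overlapping ISRE matches, beginning 134 and 128 bases before the start. The other RefSeq window of TAP1 had a GAS match and no ISRE match. Neither motif was found in the HLA-B window or in 3 windows of CMPK2, which says only that these letters are not there. Of all 35116 RefSeq windows of this length, 3.02% held the ISRE and 6.57% the GAS. GBP2, OAS2, SLFN5 and HLA-E, described below, have no window shown.

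The 8 libraries held 19901052 counts (romidepsin replicate 2) to 30816188 counts (chaetocin replicate 2). The T cell identity markers CD3D, CD3E and CD3G were present in every library. The listed T cell markers summed to 1003 to 1415 CPM (read counts scaled to library size) with romidepsin and 913 to 1471 CPM with chaetocin. Not all were well expressed: CD5 had 2.66 to 4.44 CPM over the 8 libraries. CD28 was at 0 in romidepsin replicates 3 and 4 and chaetocin replicates 2 and 4, and at most 1.05 CPM elsewhere. Chaetocin replicate 3 stood apart: it scored 91.6 on the first principal component, against -32.8 to 11.4 for the other 7. It also had 15.9% of its counts on mitochondrially encoded genes, against 5.75% to 12.7% in the others, and 16085 genes detected, the fewest of the 8. Libraries with the same number deviated together from their group means, with correlations of 0.723, 0.289, 0.256 and 0.261 for numbers 1 to 4 over 8686 genes of at least 10 CPM. The same number was not always the best match: romidepsin replicate 3 and chaetocin replicate 4 correlated best with each other, as did romidepsin replicate 4 and chaetocin replicate 3, and chaetocin replicate 2 correlated best with romidepsin replicate 1. The fit took the replicate number as a block, so that each romidepsin library was set against the chaetocin library of its number.

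Relative to chaetocin, romidepsin-treated cells had higher transcript levels of 45 genes, among them GBP2, OAS2, HLA-B, GZMA, ITGB7 and CAPN6, and lower levels of ATF5, ACTA2, TNFRSF4 and GIHCG. The edgeR quasi-likelihood test with Benjamini-Hochberg adjustment called 49 of 14717 genes at an adjusted p under 0.05, 0.333% of those tested, and each adjusted p and 95% interval below comes from this fit. Of these, 45 were higher with romidepsin (0.306%) and 4 were lower (0.0272%), and 47 were protein coding. In bulk RNA, fewer cells of a type and less RNA per cell cannot be told apart. Over all genes tested the median log2 fold change was -0.01 and 49.1% were higher with romidepsin. The called changes were moderate, from 0.55 to 2.42 in absolute log2 fold change, with a median of 0.82 among the 45 higher genes. All 49 differed in the same direction in 4 of 4 pairs, as did 9.93% (higher) and 8.81% (lower) of all genes tested. For 36 of the 45 higher genes every romidepsin library was above every chaetocin library, as was true of 2.43% of all genes, and for 3 of the 4 lower genes every romidepsin library was below (1.43% of all genes).

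For most of the called genes the DMSO mean lay between the drug means. Genes were called for a difference between the drugs, so DMSO may lie between the drug means by that selection alone. The share over all genes tested is not given here. The DMSO mean rests on numbers 1 and 4 only, which could differ widely, as for BRDT (21.9 and 6.91 CPM) and DNAJC5B (37.6 and 9.66 CPM). The counts below therefore describe levels and do not show which drug changed a gene. The DMSO mean lay between the romidepsin and chaetocin means for 41 of the 45 higher genes and above both for the other 4, among them SLFN5, GBP1 and CMPK2. It was nearer the romidepsin mean for 28 of the 45 and nearer the chaetocin mean for 17. Among the 4 lower genes it lay between the drugs for 3 and below both for GIHCG.

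The number of calls depended on the pairing. With no replicate block the same 8 libraries gave 7 calls, all among the 49, and those named here are ATF5, CAPN6, BRDT, GBP2, ITGB7 and GZMA; the block gave the other 42. Leaving out both libraries of number 1, 2, 3 or 4 gave 1, 3, 246 and 31 calls, with all 49 still called without number 3. The sign of all 49 was kept each time, which their shared sign in 4 of 4 pairs left little room to change. Among the genes named here, ATF5 and DNAJC5B were called without number 2 and none without number 1.

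**Figure D1:**
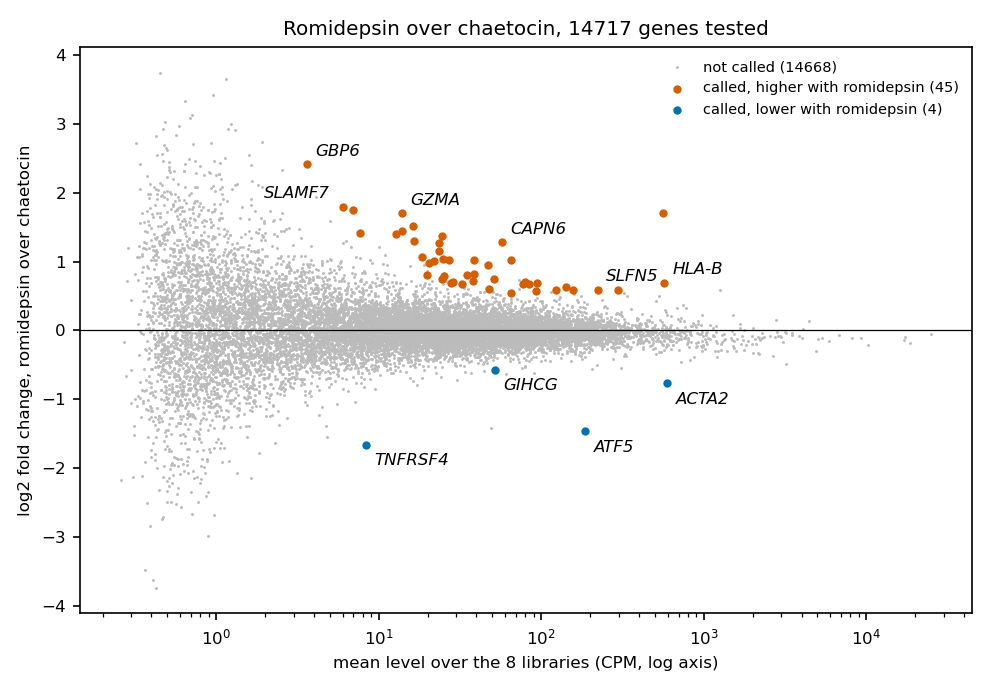
Log2 fold change of romidepsin over chaetocin (y axis) against the mean level over the 8 libraries in CPM (x axis, log scale), 1 point for each of the 14717 genes tested. Orange points are the 45 genes called higher with romidepsin, blue points the 4 called lower (TNFRSF4, ATF5, ACTA2 and GIHCG), and grey points were not called.

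Interferon-stimulated genes were the list with the most calls, 5 of 42 tested. All gene lists here and below were chosen with earlier results of these data known. Their counts, medians and ranking therefore describe these data and are not independent support. Over all genes tested, 49.1% were higher with romidepsin, 0.306% were called higher and 0.0272% called lower. These shares stand beside the counts of each list here and below. Of 45 listed genes, 42 were tested, 27 were higher with romidepsin, and 5 were called, all higher: GBP2, OAS2, SLFN5, GBP1 and CMPK2. The list median was a log2 fold change of 0.17, against -0.01 over all genes tested, and by pair it was 0.20, 0.32, 0.44 and -0.08 for numbers 1 to 4. Without the block GBP2 alone of the 42 was called, and without number 3 there were 8 calls higher and 1 lower. A separate list of interferon signalling and regulatory factors lay near 0, with 14 of 21 tested genes higher and a median of 0.03. By pair its medians were 0.12, -0.003, 0.12 and -0.06, and its calls are not reported here.

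GBP2, a guanylate-binding GTPase of cell-autonomous immunity, had 40.7, 35.7, 28.3 and 25.8 CPM with romidepsin, against 15.2, 15.1, 15 and 12.7 CPM with chaetocin. Every romidepsin library was above every chaetocin library, and the DMSO libraries had 26.1 and 22.9 CPM. The difference was 1.15 (95% interval 0.84 to 1.45, adjusted p = 0.00533) on the log2 scale. Its relative GBP1, whose promoter is printed above with 1 ISRE, had 213, 202, 162 and 118 CPM with romidepsin, against 136, 110.0, 109.5 and 86.3 CPM with chaetocin. Romidepsin replicate 4 fell within the chaetocin range, so the groups overlapped, but each pair was higher with romidepsin, and the log2 fold change was 0.63 (95% interval 0.42 to 0.84, adjusted p = 0.015). DMSO had 228 and 146 CPM. GBP6, also of this family, is not on the list and was named after its values were seen. Its levels were low, with 8.42, 11.3, 1.72 and 2.65 CPM with romidepsin, against 2.04, 2.06, 0.0997 and 0.661 CPM with chaetocin. Libraries numbered 1 and 2 were above those numbered 3 and 4 within each drug, and the fold change was the largest of all called genes at 2.42 (95% interval 1.62 to 3.22, adjusted p = 0.015). GBP5, another relative, had a log2 fold change of 0.53 and an adjusted p of 0.0591, outside the threshold.

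OAS2, which makes the 2′-5′ oligoadenylates that activate RNase L against viral RNA, had 102, 102, 96.2 and 93.7 CPM with romidepsin, against 58, 73.1, 54.2 and 56.7 CPM with chaetocin. The groups did not overlap, and DMSO, with 92 and 94.2 CPM, was close to the romidepsin libraries. Its log2 fold change was 0.71 (95% interval 0.50 to 0.92, adjusted p = 0.0101). SLFN5, a Schlafen family nuclear protein, had 272, 269.5, 229 and 296 CPM with romidepsin, against 183, 194, 136 and 197 CPM with chaetocin. All romidepsin libraries were above all chaetocin libraries, and the DMSO libraries, with 319.8 and 329 CPM, were above both drugs. Its fold change on the log2 scale was 0.59 (95% interval 0.41 to 0.78, adjusted p = 0.0119). CMPK2, a mitochondrial nucleotide kinase, had 82.4, 65.2, 28.3 and 22.3 CPM with romidepsin, against 46.6, 34.7, 12 and 17.9 CPM with chaetocin. Libraries 1 and 2 were again above 3 and 4 in both groups, which overlapped, and the log2 fold change was 0.82 (95% interval 0.51 to 1.13, adjusted p = 0.0334).

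The other interferon-stimulated genes were not called. SAMD9L and PARP14 had log2 fold changes of 0.53 and 0.42, with adjusted p-values of 0.0945 and 0.114. ISG15, the ubiquitin-like modifier, had a log2 fold change of -0.08 (adjusted p = 0.913), and MX1, a GTPase that blocks influenza virus, had a log2 fold change of -0.18 (adjusted p = 0.92). IFIT1 had the lowest log2 fold change of the list, -0.95 (adjusted p = 0.907), and OASL the highest, 1.17 (adjusted p = 0.455).

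**Figure D2:**
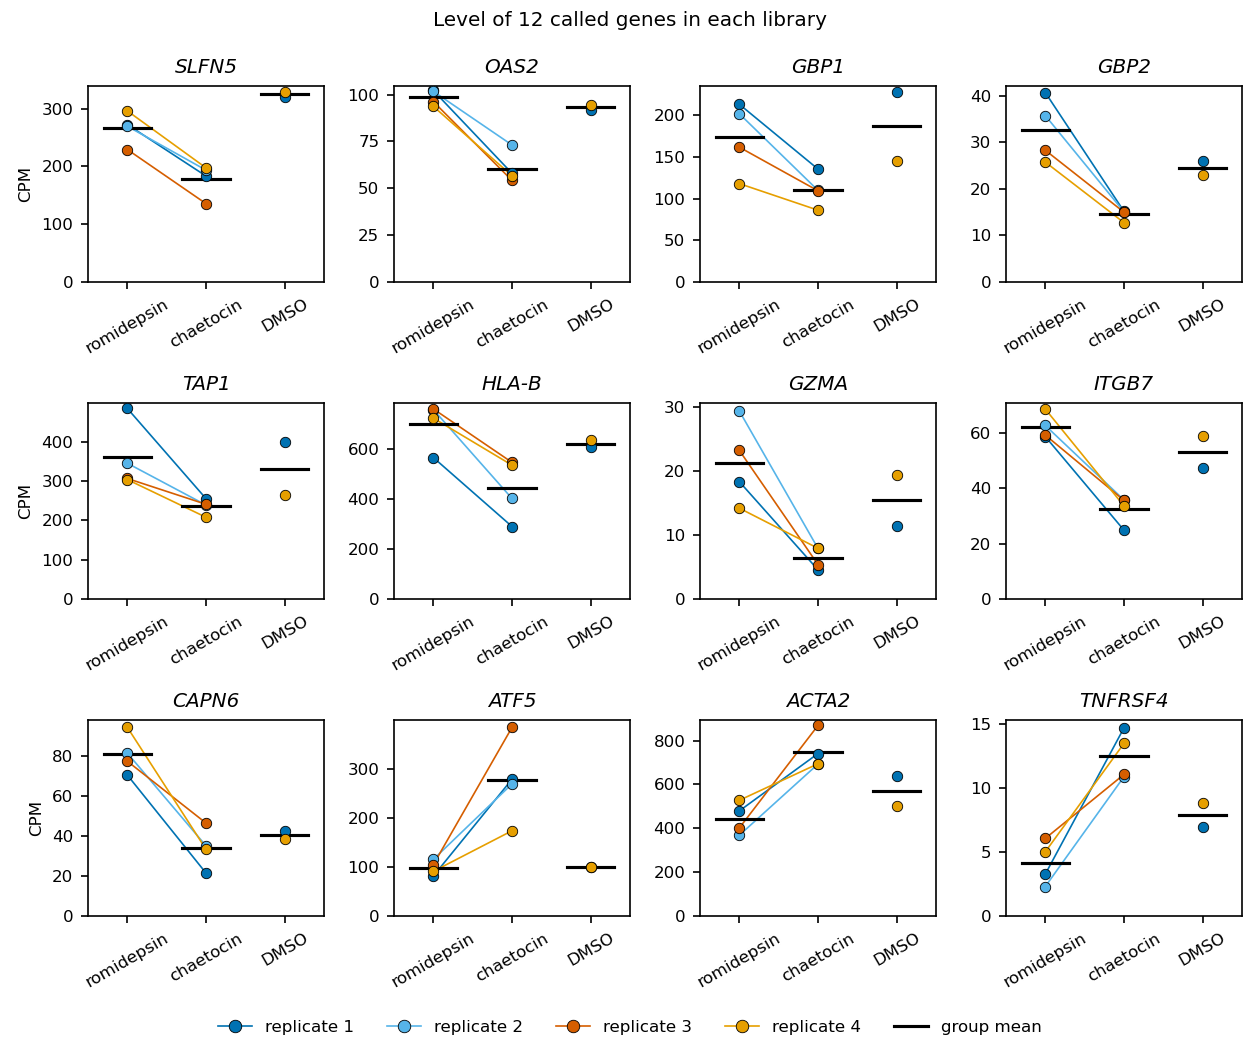
Level in CPM (y axis, from 0) of 12 called genes in each romidepsin, chaetocin and DMSO library; colours give the replicate number, thin lines join libraries of the same number and black bars are group means. In all 4 pairs the romidepsin point is above the chaetocin point for SLFN5, OAS2, GBP1, GBP2, TAP1, HLA-B, GZMA, ITGB7 and CAPN6, and below it for ATF5, ACTA2 and TNFRSF4.

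Antigen-presentation genes lay almost all on the side of romidepsin. Of 31 tested, 30 were higher with romidepsin, 7 had no overlap between groups and 3 were called, HLA-B, TAP1 and HLA-E, all higher. Of all genes tested, 49.1% were higher, 2.43% were higher without overlap and 0.306% were called higher. The list median of 0.32 was the highest of the lists with at least 8 tested genes, and it was positive in each pair, at 0.33, 0.12, 0.43 and 0.22. Among the smaller lists, the 5 tested epithelial markers had a higher median of 0.36. Without the block none of the 31 was called, and without number 3 there were 7 calls, all higher.

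HLA-B, a classical class I heavy chain, had 565, 756, 759 and 722 CPM with romidepsin, against 289, 401, 545 and 534 CPM with chaetocin. The groups did not overlap, although romidepsin replicate 1 was only slightly above chaetocin replicates 3 and 4, and DMSO had 605 and 636 CPM. Romidepsin over chaetocin gave a log2 fold change of 0.69 (95% interval 0.45 to 0.94, adjusted p = 0.0223). HLA-E, a class I chain that presents leader peptides to the receptors of natural killer cells, had 82.1, 101, 148 and 123 CPM with romidepsin, against 36.5, 59.9, 109 and 91.4 CPM with chaetocin. The groups overlapped while each pair was higher with romidepsin, and the log2 fold change was 0.69 (95% interval 0.42 to 0.96, adjusted p = 0.0451). Class I genes are close in sequence and how reads shared between them were counted is not given, so values of single HLA genes are uncertain.

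TAP1, a subunit of the transporter that moves peptides into the endoplasmic reticulum, had 484, 345, 306 and 303 CPM with romidepsin, against 255, 239, 241 and 208 CPM with chaetocin. Its groups did not overlap, and the log2 fold change was 0.58 (95% interval 0.36 to 0.81, adjusted p = 0.0374). PSMB9, an immunoproteasome subunit, did not pass the threshold, at a log2 fold change of 0.50 (adjusted p = 0.0591). NLRC5, the transactivator of class I genes, had a log2 fold change of 0.56 (adjusted p = 0.132), with no overlap between the groups. B2M, whose protein is the invariant chain of class I MHC, had 1346, 1813, 1706 and 1186 CPM with romidepsin, against 831, 1151, 841 and 1196 CPM with chaetocin. It was higher with romidepsin in 3 of 4 pairs, and its log2 fold change of 0.59 was not called (adjusted p = 0.132). HCP5, a noncoding gene within the class I region, was called at a log2 fold change of 1.01 (95% interval 0.68 to 1.34, adjusted p = 0.015), with overlapping groups. It is not on the list and was named after its values were seen. It is annotated as overlapping another gene in sense, and reads from the 2 cannot be told apart here.

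Among cytotoxic effector genes, 11 of 12 tested were higher with romidepsin, with a median of 0.27 and 1 call. The granzyme genes GZMK and GZMM were not called, at log2 fold changes of 0.96 and 0.03 (adjusted p = 0.0857 and 0.974). GZMA, the granule serine protease granzyme A, had 18.4, 29.4, 23.2 and 14.2 CPM with romidepsin, against 4.57, 7.92, 5.38 and 7.93 CPM with chaetocin. The lowest romidepsin library was above the highest chaetocin library, and DMSO, with 11.4 and 19.4 CPM, had a mean between them. The log2 fold change was 1.71 (95% interval 1.24 to 2.18, adjusted p = 0.00536), and GZMA remained called in all 13 alternatives that kept all 8 libraries. GZMA was not called without replicate 1 or without replicate 2. FASLG, the ligand of the death receptor FAS, had 13, 12.7, 13.8 and 16.2 CPM with romidepsin, against 5.13, 7.35, 8.47 and 3.89 CPM with chaetocin. Its groups did not overlap, but the log2 fold change of 1.21 was just outside the threshold (adjusted p = 0.0591) and was called without number 3. FAS itself had a log2 fold change of -0.12 (adjusted p = 0.788).

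ITGB7, the integrin beta 7 chain that pairs with alpha 4 or alpha E for homing to gut and epithelium, had 58.6, 62.6, 59.1 and 68.5 CPM with romidepsin, against 24.8, 35.7, 35.6 and 33.6 CPM with chaetocin. Every romidepsin library was above every chaetocin library, DMSO had 47.4 and 58.8 CPM, and the log2 fold change was 0.95 (95% interval 0.69 to 1.20, adjusted p = 0.00533). It was the 1 called gene of 21 tested homing genes, whose median was 0.10 with 12 higher.

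The chemokine receptors CCR1 and CCR2, neighbours in one gene cluster with related sequences, were called higher; neither is on the homing list, and both were named after their values were seen. CCR1 had 44.1, 43.2, 46.1 and 43.7 CPM with romidepsin, against 23.7, 25.2, 30.5 and 22.6 CPM with chaetocin. Its romidepsin libraries lay close together and all above chaetocin, with a log2 fold change of 0.80 (95% interval 0.54 to 1.06, adjusted p = 0.0147). CCR2, the receptor for CCL2, had 47.9, 33.1, 21.4 and 40.9 CPM with romidepsin, against 20.5, 28.5, 9.87 and 14 CPM with chaetocin; its groups overlapped and the log2 fold change was 1.02 (95% interval 0.61 to 1.43, adjusted p = 0.049).

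SLAMF7, a self-ligand receptor of activated lymphocytes, had 15, 11.7, 5.12 and 6.36 CPM with romidepsin, against 3, 3.13, 1.79 and 2.37 CPM with chaetocin. No libraries overlapped, and the log2 fold change was 1.8 (95% interval 1.24 to 2.35, adjusted p = 0.0119). CD200R1, an inhibitory receptor for CD200, had 15.2, 26.5, 14.3 and 17.8 CPM with romidepsin, against 7.44, 10.1, 3.19 and 8.24 CPM with chaetocin, again without overlap, and a log2 fold change of 1.40 (95% interval 0.96 to 1.84, adjusted p = 0.0119). MS4A1, which encodes the B cell antigen CD20, had 23.7, 33.3, 23 and 14.9 CPM with romidepsin, against 10.7, 11.6, 7.72 and 7.85 CPM with chaetocin. The groups did not overlap, and the log2 fold change was 1.30 (95% interval 0.94 to 1.65, adjusted p = 0.00533). The 8 listed B cell markers summed to 69.8 to 99.5 CPM with romidepsin and 51.2 to 105 CPM with chaetocin; 4 were tested, 3 of them higher, and CD79A, part of the B cell receptor, had a log2 fold change of -0.24 (adjusted p = 0.618). The part of these markers in the MS4A1 result was not tested. TGFBR3, the transforming growth factor beta co-receptor betaglycan, was also called, at a log2 fold change of 0.61 (95% interval 0.38 to 0.84, adjusted p = 0.0334). It was named after its values were seen.

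No interleukin receptor was called among 14 tested, of which 10 were higher, with a median of 0.25. IL2RB, the shared beta chain of the interleukin-2 and interleukin-15 receptors, had 107, 100.2, 67.1 and 92.9 CPM with romidepsin, against 52.4, 57.8, 66.3 and 43.4 CPM with chaetocin. Its groups did not overlap, with romidepsin replicate 3 next to chaetocin replicate 3, and the log2 fold change of 0.73 had an adjusted p of 0.103. T cell receptor and proximal signalling genes had a median of 0.11, 21 of 29 higher and no call.

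The genes of this paragraph were called higher with romidepsin, are on none of the gene lists and were picked for naming after their values were seen. PRKCB, a conventional protein kinase C that links antigen receptors to NF-kB, had 80.9, 81.4, 95.9 and 86.9 CPM with romidepsin, against 29.1, 43.6, 46.4 and 54.6 CPM with chaetocin. The groups were well separated, DMSO had 51.7 and 62.6 CPM, and the log2 fold change was 1.02 (95% interval 0.74 to 1.29, adjusted p = 0.00533). RASGRP1, the exchange factor that activates Ras downstream of the T cell receptor, had a log2 fold change of 0.67 (95% interval 0.42 to 0.92, adjusted p = 0.0317), with chaetocin replicate 1 far below the other chaetocin libraries. IKZF1, the lymphoid transcription factor Ikaros, had 243, 169.5, 162 and 179.9 CPM with romidepsin, against 149.7, 143, 92 and 119.6 CPM with chaetocin, with a log2 fold change of 0.58 (95% interval 0.36 to 0.80, adjusted p = 0.0331). PLCL1, a phospholipase C-like protein without catalytic activity, had a log2 fold change of 0.70 (95% interval 0.43 to 0.97, adjusted p = 0.0374). PRKAA1, a catalytic subunit of AMP-activated kinase, had the smallest called log2 fold change, 0.55 (95% interval 0.33 to 0.77, adjusted p = 0.049). ASB2, a substrate-recognition subunit of a ubiquitin ligase, had a log2 fold change of 0.67 (95% interval 0.45 to 0.90, adjusted p = 0.015). STX3, a syntaxin of vesicle fusion at the plasma membrane, had a larger one of 1.02 (95% interval 0.74 to 1.30, adjusted p = 0.00533).

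CAPN6, a calpain that lacks the catalytic cysteine and stabilises microtubules, had 70.5, 81.5, 77.5 and 94.4 CPM with romidepsin, against 21.5, 35.1, 46.5 and 33.4 CPM with chaetocin. The groups were apart and DMSO, with 42.3 and 38.6 CPM, was near the chaetocin libraries. The log2 fold change was 1.29 (95% interval 0.96 to 1.61, adjusted p = 0.00497), and CAPN6 remained called in all 13 alternatives that kept all 8 libraries. CAPN6 was not called without replicate 1 or without replicate 2. BRDT, the testis-specific bromodomain protein that binds acetylated histones, had 30.2, 26.9, 18.2 and 22.1 CPM with romidepsin, against 7.26, 8.7, 9.07 and 8.28 CPM with chaetocin. No libraries overlapped between the drugs, while DMSO, with 21.9 and 6.91 CPM, had 1 library within the romidepsin range and 1 below the chaetocin range, and the log2 fold change was 1.52 (95% interval 1.12 to 1.93, adjusted p = 0.00533).

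MEOX1, a homeobox factor of somite development, had 13, 16.9, 5.35 and 6.54 CPM with romidepsin, against 4.78, 6.57, 1.05 and 1.59 CPM with chaetocin, with a log2 fold change of 1.75 (95% interval 1.22 to 2.28, adjusted p = 0.0111). FOXP2, a forkhead factor known for its role in speech, had 9.71, 14.8, 10.5 and 9.05 CPM with romidepsin, against 3.65, 6.63, 2.39 and 4.43 CPM with chaetocin, with a log2 fold change of 1.41 (95% interval 0.90 to 1.92, adjusted p = 0.0274). CDH3, the adhesion molecule P-cadherin, had 46.5, 25.5, 29.6 and 29.6 CPM with romidepsin, against 23.4, 12.7, 15.7 and 6.1 CPM with chaetocin, with a log2 fold change of 1.27 (95% interval 0.82 to 1.72, adjusted p = 0.0251). DNAJC5B, a cysteine string protein of the J-domain family, had 51.9, 46.8, 14.9 and 25.1 CPM with romidepsin, against 21.9, 20.9, 4.63 and 9.1 CPM with chaetocin. FOXP2 and CDH3 had no overlap between groups, while MEOX1 and DNAJC5B overlapped, with libraries 3 and 4 lower than 1 and 2 for either drug. For DNAJC5B the paired log2 fold change was 1.37 (95% interval 1.07 to 1.67, adjusted p = 0.00166), and it was not called without the block.

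The remaining called genes that were higher with romidepsin are named after their values were seen. They are OSTF1, FLOT1, MAP7, RHOBTB3, RBMS3, MYO1E, ARL10, GPRIN3, ATP8A1, PTMS and TRANK1, with log2 fold changes of 0.57 for PTMS to 1.04 for RBMS3. FLOT1 encodes the lipid raft protein flotillin 1, MAP7 a microtubule-associated protein that recruits kinesin 1, and MYO1E an unconventional class I myosin. Of these 11, only MYO1E overlapped between the groups. OSTF1, an SH3-domain adaptor, had 63.6, 60.3, 70.9 and 61.6 CPM with romidepsin, against 46.1, 30.9, 36.6 and 40.3 CPM with chaetocin, with a log2 fold change of 0.74 (95% interval 0.49 to 1.00, adjusted p = 0.0168).

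**Figure D3:**
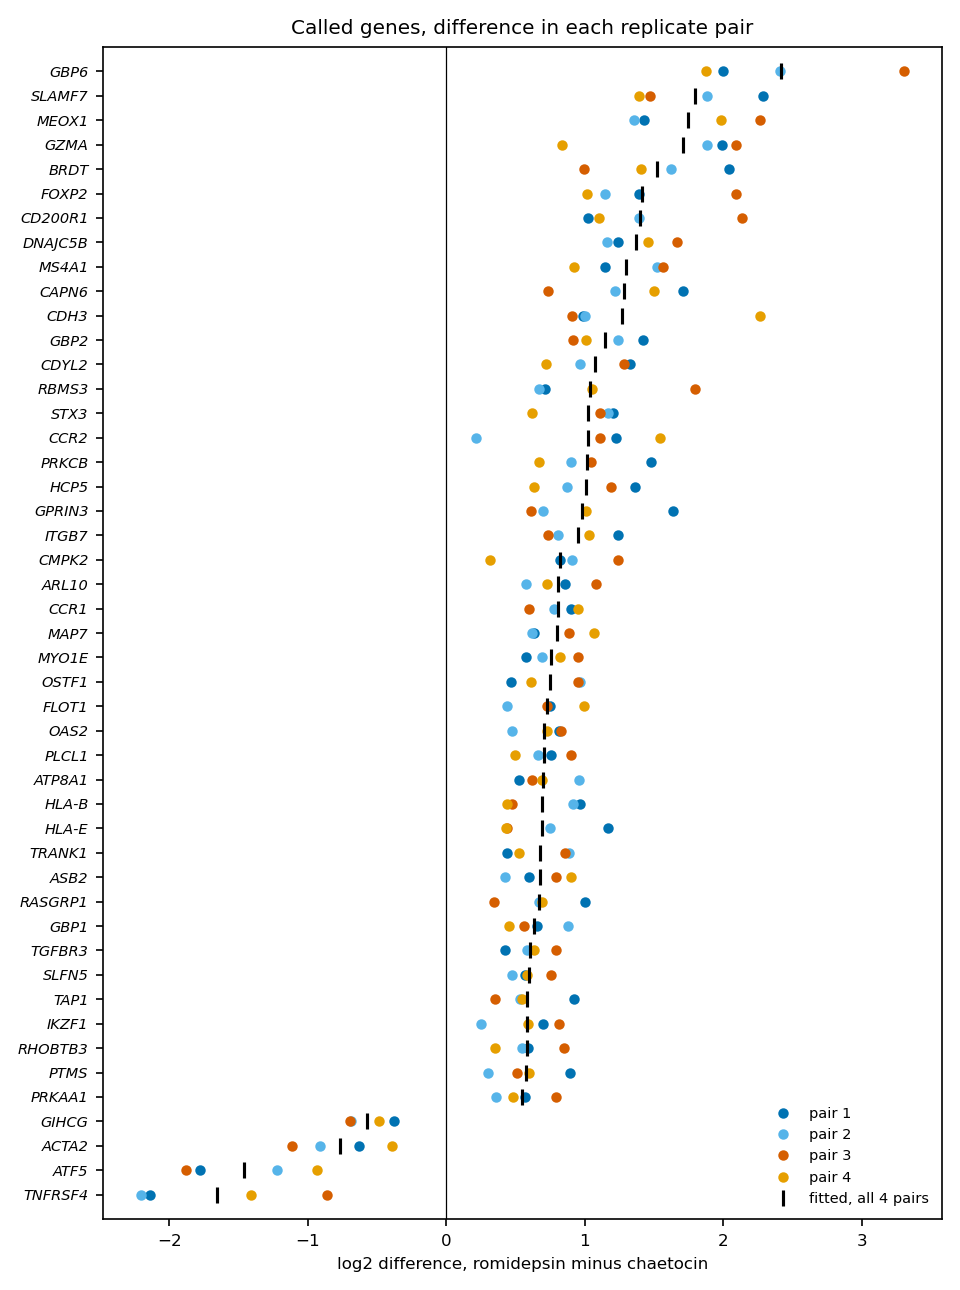
Log2 difference in CPM of romidepsin minus chaetocin (x axis) in each of the 4 replicate pairs (coloured points) for 47 of the 49 called genes (y axis), with the fitted log2 fold change as a black bar. All points of the genes above GIHCG lie right of 0 and all points of GIHCG, ACTA2, ATF5 and TNFRSF4 lie left of 0.

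ATF5 was the called gene that was lower with romidepsin with the smallest p. It is a bZIP transcription factor of the integrated stress response that drives the mitochondrial unfolded protein response. It had 81.4, 115, 105 and 90.9 CPM with romidepsin, against 279, 269, 384 and 174 CPM with chaetocin. Every romidepsin library was below every chaetocin library, and DMSO, with 99.4 and 101 CPM, was at the level of romidepsin. The log2 fold change was -1.46 (95% interval -1.77 to -1.14, adjusted p = 0.00166), so that the level with chaetocin was 2.75 times that with romidepsin. ATF5 remained called in all 13 alternatives that kept all 8 libraries, and without replicate 2, 3 or 4. It was not called without replicate 1.

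Other integrated stress and unfolded protein response genes did not pass the test. Of 35 tested, 15 were higher and 20 lower with romidepsin, with a median of -0.11 and ATF5 as the 1 call. SLC3A2, the heavy chain of the amino acid transporter CD98 and a target of ATF4, had 75.2, 62.3, 77.5 and 69.3 CPM with romidepsin, against 147, 111, 95.7 and 88.2 CPM with chaetocin. No libraries overlapped, and its log2 fold change of -0.62 was just outside the threshold (adjusted p = 0.0583). PYCR1, a mitochondrial enzyme of proline synthesis that is not on the list, had a log2 fold change of -0.67 (adjusted p = 0.0591). SLC3A2 and PYCR1 were called without number 3.

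ACTA2, smooth muscle actin alpha 2, had 479, 368, 401 and 527 CPM with romidepsin, against 741, 693, 869 and 694 CPM with chaetocin. The groups did not overlap, DMSO had 639 and 502 CPM, and the log2 fold change was -0.77 (95% interval -1.02 to -0.51, adjusted p = 0.015). Among 26 tested genes of the actin cytoskeleton list, ACTA2 was called lower and CAPN6 higher, 9 were higher in all, and the median was -0.07. CAPN6 is counted here because it is on the list, although its action given above is on microtubules. PALLD, the actin cross-linker palladin, had a log2 fold change of 0.43 and an adjusted p of 0.0583. Listed fibroblast markers, which can come with ACTA2 from another cell type, summed to 171 to 197 CPM with romidepsin and 175 to 210 CPM with chaetocin, and COL1A2 was at 0 in all 8 libraries. Of 5 tested, 3 were higher with romidepsin, none was called and the median was 0.14. THY1, a surface glycoprotein of fibroblasts and some T cells, had 59.7, 70.8, 97.7 and 94.4 CPM with romidepsin, against 87.2, 91, 123 and 116 CPM with chaetocin. It was lower with romidepsin in 4 of 4 pairs with overlapping groups, at a log2 fold change of -0.39 (adjusted p = 0.132), and was called lower without number 3 and with the block over all 13 libraries. COL1A1, a fibrillar collagen chain, had a log2 fold change of -0.23 (adjusted p = 0.727). The part of these markers in the ACTA2 result was not tested.

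TNFRSF4, the costimulatory receptor OX40, had 3.27, 2.3, 6.06 and 5.01 CPM with romidepsin, against 14.7, 10.9, 11.1 and 13.5 CPM with chaetocin. Every romidepsin library was below every chaetocin library and the log2 fold change was -1.66 (95% interval -2.21 to -1.11, adjusted p = 0.015). DMSO had 6.95 and 8.84 CPM, between the groups. TNFRSF18, the related receptor GITR, also had no overlap, with 2.95, 3.3, 2.24 and 2.83 CPM with romidepsin, against 6.92, 6.19, 5.88 and 5.4 CPM with chaetocin, but its log2 fold change of -1.12 was not called (adjusted p = 0.149). Both belong to the list of NF-kB subunits and feedback targets, in which 8 of 28 tested genes were higher with romidepsin, 1 was called and the median was -0.09. GIHCG, a long noncoding RNA, had 33.8, 33.6, 49.7 and 49.1 CPM with romidepsin, against 44.1, 54.2, 80.6 and 69 CPM with chaetocin. The groups overlapped, each pair was lower with romidepsin, and the log2 fold change was -0.57 (95% interval -0.80 to -0.34, adjusted p = 0.049).

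The next genes on the lower side by p did not pass the threshold. ZFP36L1, an RNA-binding protein that promotes mRNA decay, had a log2 fold change of -0.62 (adjusted p = 0.0512). COX8A, a subunit of cytochrome c oxidase, had a log2 fold change of -0.63 (adjusted p = 0.0583). CENPV, CPSF1, NR1D1 and BSN had log2 fold changes from -0.84 for BSN to -0.44 for CPSF1 and adjusted p-values from 0.0741 to 0.107.

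The genes of the drugs' own targets did not pass the test. SUV39H1 had 38.8, 34.4, 44 and 37.3 CPM with romidepsin, against 33.9, 44.1, 32.7 and 41.9 CPM with chaetocin, with overlapping groups and a log2 fold change of 0.02 (95% interval -0.28 to 0.32, adjusted p = 0.978). SUV39H2 had a log2 fold change of -0.14 (adjusted p = 0.807) and EHMT2, the methyltransferase G9a, had a log2 fold change of -0.05 (adjusted p = 0.933). HDAC1 had 397, 403, 442 and 419 CPM with romidepsin, against 373, 331, 393 and 365 CPM with chaetocin. Its romidepsin libraries were all above its chaetocin libraries by a small margin, at a log2 fold change of 0.18 (95% interval -0.00 to 0.36, adjusted p = 0.542). HDAC2 and HDAC3 had log2 fold changes of 0.03 and -0.09, with adjusted p-values of 0.945 and 0.851.

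The 4 chromatin lists held 1 call. CDYL2, a chromodomain protein that binds methylated H3 lysine 9, had 29.2, 26.1, 22.2 and 23.1 CPM with romidepsin, against 11.6, 13.3, 9.07 and 14 CPM with chaetocin. The groups did not overlap, and the log2 fold change was 1.07 (95% interval 0.74 to 1.41, adjusted p = 0.0119). It was the 1 called gene of 32 tested in the H3 lysine 9 methylation machinery, 11 of which were higher, with a median of -0.05. None of 18 histone deacetylases and sirtuins was called (median -0.01), none of 28 acetyltransferases and corepressor subunits (-0.03), and none of 28 Polycomb genes (-0.04).

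Genes commonly induced by histone deacetylase inhibitors were not called either: 12 of 19 tested were higher with romidepsin, and the median was 0.08. CDKN1A, the cell cycle inhibitor p21 and the best known of them, had 4.16, 3, 4.15 and 2.04 CPM with romidepsin, against 2, 1.06, 2.04 and 1.28 CPM with chaetocin. These are low levels with overlapping groups, and the log2 fold change was 1.06 (95% interval 0.25 to 1.86, adjusted p = 0.379). CLU, the chaperone clusterin, had a log2 fold change of 1.01 (adjusted p = 0.17). CKB, brain creatine kinase, had 63.3, 74.7, 76.1 and 81.1 CPM with romidepsin, against 49, 47.4, 72.5 and 55.9 CPM with chaetocin. Its groups overlapped, at a log2 fold change of 0.41 (adjusted p = 0.247), and DMSO, with 36.4 and 29.5 CPM, was below both drugs.

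**Figure D4:**
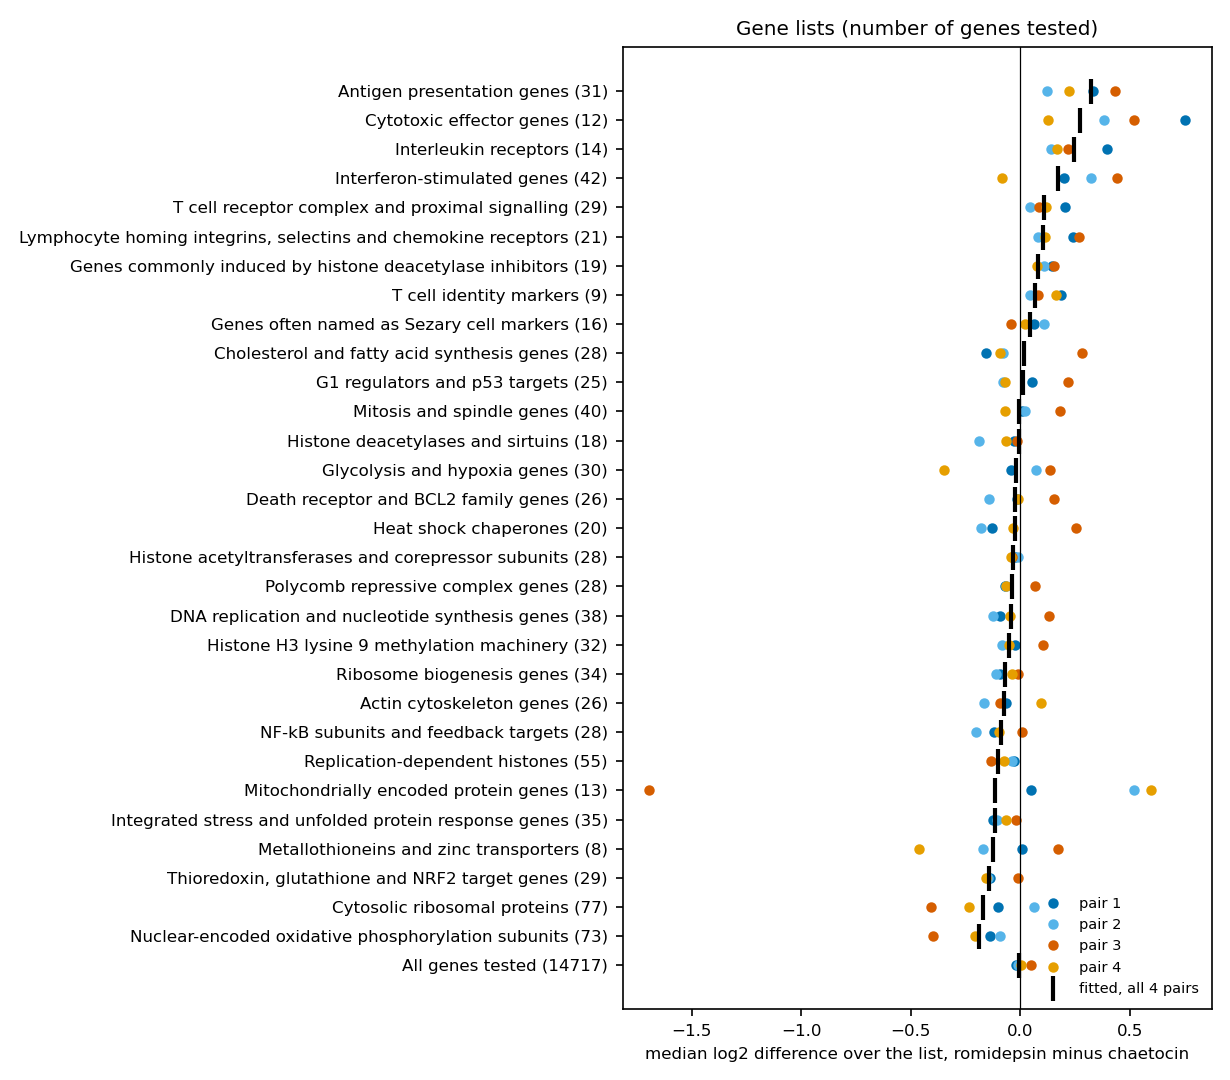
Median log2 difference of romidepsin minus chaetocin (x axis) over the tested genes of each list (y axis, number of tested genes in brackets), for each replicate pair (coloured points) and for the fit over all 4 pairs (black bars). Among the lists drawn, the fitted median of antigen-presentation genes lies farthest right at 0.32 and that of oxidative phosphorylation subunits farthest left at -0.19. Pair 3 of the mitochondrially encoded genes lies at -1.69.

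Ribosomal and oxidative phosphorylation lists had medians below 0 and no call, while other metabolic lists lay near 0. Of 77 tested cytosolic ribosomal protein genes 6 were higher with romidepsin, with a median of -0.17, and by pair the medians were -0.10, 0.06, -0.41 and -0.23. Of 73 nuclear-encoded oxidative phosphorylation subunits 7 were higher, with a median of -0.19. Cholesterol and fatty acid synthesis genes had 16 of 28 higher and a median of 0.02, and glycolysis and hypoxia genes 11 of 30 higher and a median of -0.02, with no call in either. Without number 3 the medians were -0.10 for ribosomal protein genes and -0.12 for oxidative phosphorylation subunits, of which 3 were then called lower. Thioredoxin, glutathione and NRF2 target genes had 6 of 29 higher, a median of -0.14 and no call, and PRDX1, a peroxidase that thioredoxin reduces, had a log2 fold change of -0.29 (adjusted p = 0.317). The 13 mitochondrially encoded genes were all lower in the fit, with a median of -0.11, but by pair the medians were 0.05, 0.52, -1.69 and 0.60. Pair 3 holds the chaetocin library with the highest mitochondrial share, and without number 3 the median was 0.40 and 5 of the 13 were called higher.

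No list of proliferation genes held a call. The median was -0.0045 over 40 mitosis and spindle genes, -0.04 over 38 replication and nucleotide synthesis genes and 0.01 over 25 G1 regulators and p53 targets. Genes often named as Sézary cell markers had a median of 0.04 over 16 tested and no call. Of these, DPP4, the surface peptidase CD26, had 13.9, 18.1, 14.1 and 16.9 CPM with romidepsin, against 9.22, 11.5, 7.38 and 11.1 CPM with chaetocin, without overlap, and a log2 fold change of 0.69 (adjusted p = 0.132). GATA3, the type 2 helper T cell factor, had a log2 fold change of -0.39 (adjusted p = 0.295).

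Markers of other cell types were read as a check. Listed epithelial markers summed to 125 to 168 CPM with romidepsin and 105 to 120 CPM with chaetocin. All 5 tested were higher with romidepsin, with a median of 0.36, none was called, and KRT19 was at 0 in all 8 libraries. CDH1 had a log2 fold change of 0.71 (adjusted p = 0.121) and was higher with romidepsin in 4 of 4 pairs, with overlapping groups. It was called higher with the block over all 13 libraries. KRT8, a simple epithelial keratin, had 80.5, 73.1, 73.7 and 69 CPM with romidepsin, against 51.8, 60.2, 50.5 and 60.8 CPM with chaetocin, without overlap, at a log2 fold change of 0.41 (adjusted p = 0.193). Listed myeloid markers summed to 1.91 to 4.55 CPM with romidepsin and 1.74 to 4.91 CPM with chaetocin, with CD68 and S100A8 at 0 in all 8. The part of these markers in the differences above was not tested.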

How the data were processed

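RNA sequencing of HuT78 cells gave 13 libraries, made per the labels from total RNA with the Ovation Human FFPE RNA-Seq kit. The values are raw counts of reads per gene as deposited by the authors, not normalized, in 1 table of 45744 genes. Per the submitters' processing notes, bcl2fastq 2.20.0.422, cutadapt 1.8.1 and HTSeq 0.6.1 were used with the hg19 build; the aligner, strand setting, annotation release and treatment of reads shared between genes are not given in these sources. Groups and replicate numbers came from the sample titles, and all columns of the table matched a sample.

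The 4 romidepsin and 4 chaetocin libraries, of 19901052 to 30816188 counts, were tested with edgeR 4.0.16 in R 4.3.3: filterByExpr, TMM scaling, a robust quasi-likelihood fit with the replicate number as a block of 4 levels, a two-sided test and Benjamini-Hochberg adjustment over the 14717 genes tested. The labels do not say what a number marks; same-numbered libraries deviated together in all 4 pairs, with correlations of 0.256 to 0.723, but both libraries of numbers 3 and 4 and chaetocin replicate 2 correlated best with another number. Shown CPM use TMM factors over all 13 libraries, and log2 differences by pair add a prior count of 2. Standard errors and 95% intervals were derived from the test statistic. No replicates were identical. The fit was also run on simulated counts drawn with the replicate number as a true block. That run cannot show whether the number is a valid block in these libraries.

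The text names, per direction, the 12 called genes with the largest change, at least 5 CPM on average and 1 sign in 4 pairs (filled by smallest p), the leading members of each gene list, and genes of the drug targets. This gives 99 genes, of which 3 are not reported here although they are in every count; a further 23 called genes outside this rule were named after their values were seen. The comparison, the lists and the rule were chosen with earlier results of these data known. Older symbols were matched through HGNC and RefSeq names. Alternatives were DESeq2 1.42.0, limma-voom (limma 3.58.1), other scalings, filters and models, and libraries left out. Promoter sequences are RefSeq's on GRCh38.p14, and were not used in any count. Figures were drawn with matplotlib 3.10.9.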

Additional observations from a re-analysis of the deposited data

Results flagged for a closer look

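In 14 of 238 groups of 4 libraries checked over the named genes, 1 library lay far from the other 3, its gap to the nearest of them a larger share of the group's range than Dixon's critical value allows. Chance gives about 1 in 20 such groups.

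Among called genes, GBP2 in chaetocin replicate 4 was at 12.8 CPM against 15 to 15.2 in the other chaetocin libraries. RASGRP1 and PLCL1 were low in chaetocin replicate 1, at 37.5 CPM for RASGRP1 against 66.9 to 69.9 in the others, and at 17.4 CPM for PLCL1 against 22.7 to 23.4. TRANK1 was high in romidepsin replicate 2, at 51.4 CPM against 35 to 37.6 in the other romidepsin libraries.

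The other flagged genes were not called. In romidepsin replicate 1, CDH1, the epithelial cadherin, was at 34.3 CPM against 14.3 to 15.4, HSPE1 at 58.1 CPM against 78.8 to 79.9, and SUV39H2 at 47.6 CPM against 33.6 to 34.8. In romidepsin replicate 2, DHCR7 was at 48.9 CPM against 79.3 to 85.4. In romidepsin replicate 3, VEGFA was at 113 CPM against 43.5 to 50.6 and SLC39A10 at 52.5 CPM against 34.2 to 36.9. CLU was at 4.73 CPM in romidepsin replicate 4 against 8.8 to 9.09. JARID2 was at 210.5 CPM in chaetocin replicate 2 against 233 to 235. In chaetocin replicate 3, the library that stood apart from the rest, HDAC2 was at 208 CPM against 175 to 179 and ITGAM at 1.25 CPM against 2.1 to 2.18.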

How the results depend on the processing

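The 49 called genes kept their sign in each alternative in which they were tested, which their shared sign in 4 of 4 pairs made likely. The number called moved widely. It was 7 (6 higher with romidepsin, 1 lower) with no replicate block, 16 (13 and 3) with no replicate block over all 13 libraries, 144 (121 and 23) with the replicate block over 13 libraries, 174 (142 and 32) with DESeq2, 85 (72 and 13) with limma-voom, 231 (170 and 61) with no filter and 6 (5 and 1) with a minimum log2 fold of 0.5. It was 39 to 58, with 3 to 7 lower, with the other scalings and filter, the non-robust fit, mitochondrial genes left out and a term for numbers 1 and 2 against 3 and 4. Without 1 replicate number in turn it was 1 to 246, with 1 to 168 higher and 0 to 78 lower. With single libraries left out and no block it was 0 to 8; it was 5, all higher, without romidepsin replicate 4, and 0 by edgeR without chaetocin replicate 2, romidepsin replicate 1 or romidepsin replicate 2, with 763, 685 and 563 genes at an unadjusted p under 0.05. The cause of these shifts was not tested. With 4 libraries a group and doses that differ, a gene that was not called is not shown to be alike between the drugs.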
